A study of Drosophila melanogaster with 9 samples.

Results

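Ovaries of females that carried one copy of the moe[NES] allele were compared, gene by gene, with ovaries of females that carried one copy of the moe[G0415] allele. The 6 libraries of this comparison, of 9 in the series, were chosen by the genotype in the labels. The NES heterozygote was moe[NES]/w1118 (3 libraries), the null heterozygote was moe[G0415]/w1118 (3 libraries), and both kept the w1118 chromosome with its wild-type Moe copy. The remaining 3 libraries, the mutant, were moe[NES]/moe[G0415], with no such chromosome. All flies were Drosophila melanogaster females aged 3 days, kept at 25 °C with no heat treatment named, and each library held RNA from the ovaries of 10 females of a genotype. The alleles were carried by the whole animal, and whole ovaries, with germ cells, follicle cells and sheath, were sequenced. The series asks about Moesin and heat shock gene expression, and the comparison asks how far its heterozygotes differed from each other.

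Moesin, encoded by Moe, is the only fly member of the ERM family (ezrin, radixin, moesin). These proteins tether actin filaments to the plasma membrane when they are phosphorylated, and a pool of Moesin also enters the nucleus. In the ovary Moesin is known for holding the actin cortex of the oocyte in place, where it helps to anchor the factors that pattern the embryo's posterior. Moe lies on the X chromosome, so the compared females differed at least in an X chromosome. The labels do not describe the autosomes.

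Heterozygote libraries held 31.8 to 37.8 M counts. Levels below are counts per 1e6 (CPM) after TMM scaling, as mean ± SD with n = 3 per genotype, and log2 fold changes, or log2 ratios, are NES over null heterozygote. Nothing in the labels ties the replicates of a genotype to separate crosses. P-values therefore reflect the spread among these libraries, which may be technical. The ovary label matched its germline markers, with osk between 1415 and 1991 CPM and otu between 522 and 697 CPM in the 6 libraries. Of the markers of other tissues, 4 of 10 neuron, 3 of 17 gut and Malpighian tubule, 5 of 12 fat body, 8 of 15 blood cell, 6 of 10 oviduct and spermatheca and 19 of 23 muscle markers passed the count filter. Of these, 0 were called by edgeR, DESeq2 called 1 fat body marker lower, and 0, 1, 1, 0, 2 and 0 had an unadjusted p under 0.05. Over all genes, DESeq2 called 306 of 9845, and 9.55% of those tested by edgeR had an unadjusted p under 0.05. Of 19 testis markers 3 were tested, 0 were called by edgeR and 2 had an unadjusted p under 0.05. DESeq2 called the testis marker sa higher (DESeq2 adjusted p = 0.00244) and mia lower (DESeq2 adjusted p = 0.0261). The muscle list, whose genes the ovary sheath shares, summed to 678 to 880 CPM in the null and 684 to 883 CPM in the NES heterozygote, most of it from Tm1, and the oviduct list to at most 479 and 498 CPM. The median log2 fold change of the tested muscle genes was 0.00. It was -0.47 without null heterozygote replicates 1 and 3, and 0.34 without null heterozygote replicate 2. Among blood cell markers crq, Col4a1 and vkg were between 86.5 and 319 CPM and Hml under 1 CPM. The summed gut list ran from 78.7 to 89.8 CPM in the null and from 63.8 to 75.1 CPM in the NES heterozygote, nearly all from Irk1. The null heterozygote libraries were unlike one another. Genes of the eggshell and yolk are expressed mainly as egg chambers mature. Their share was 1.23%, 5.24% and 1.43% of counts in the 3 null heterozygote replicates and 2.82%, 5.44% and 4.03% in the NES heterozygote. The mean difference of 1.46 percentage points had p = 0.3 in an exact two-sided permutation test, in which 3 against 3 cannot go below 0.1. Left out together, null heterozygote replicates 1 and 3 turned this difference to -1.14. The first principal component of the 6 libraries, with 50% of the variance, placed those libraries at -39.03 and -35.39 and the others between -5.14 and 33.25. On the second, with 25%, null heterozygote replicate 2 stood apart at -36.07. Null replicates 1 and 3 were there at -9.91 and -7.98, and the NES libraries between 9.49 and 25.21. The genes that kept or lost the call without null heterozygote replicates 1 and 3 are given below, as are the medians of the described lists that turned sign.

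**Figure D1:**
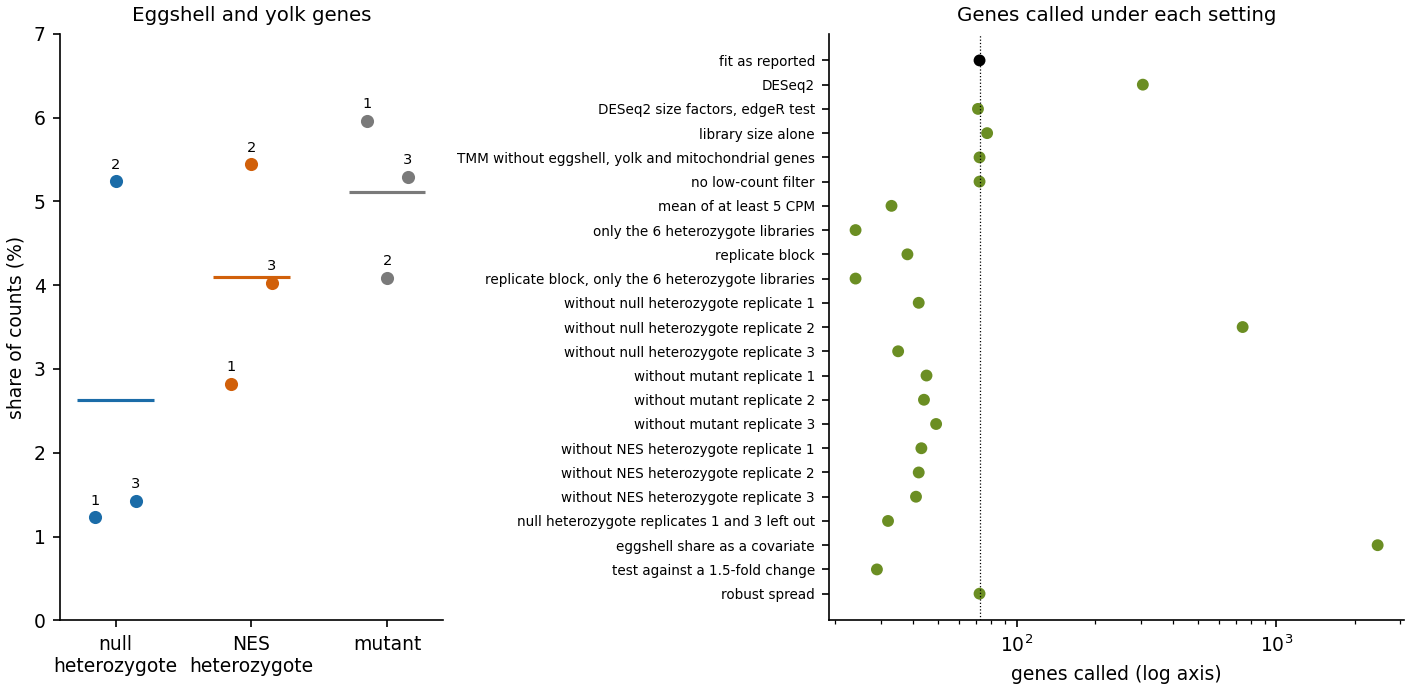
Left, the share of counts (%) in eggshell and yolk genes in each library (points, with the replicate number) and the mean of each genotype (line); null heterozygote replicates 1 and 3 lie below 1.5% and the other 7 libraries above 2.8%. Right, the number of genes called under each setting of the analysis (log axis), with the 72 of the reported fit as a dotted line; the count moves from 24 to 2451.

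The number of genes called between the heterozygotes was small in the reported fit and depended on the setting. Of 8642 genes tested, 72 (0.833%) passed an edgeR adjusted p of 0.05, 38 of them higher (0.44%) and 34 lower (0.393%) in the NES heterozygote. The 3 libraries of one genotype lay apart from the 3 of the other in all 72. That was so for 1149 of all tested genes, or 13.3%, and 825 genes (9.55%) had an unadjusted p under 0.05. Among the called genes the median absolute log2 fold change was 1.66, against 0.11 over all tested genes. In 23 of them the lower genotype had a mean under 0.5 CPM, 13 times the NES and 10 times the null heterozygote, so these were genes near or at background on one side. At the other end, 27 called genes differed by less than 1 on the log2 scale, 16 higher and 11 lower. A further 403 genes had a log2 fold change of at least 1 in size and were not called. Protein-coding genes made up 61 of the calls, noncoding RNA genes 6 and pseudogenes 5.

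**Figure D2:**
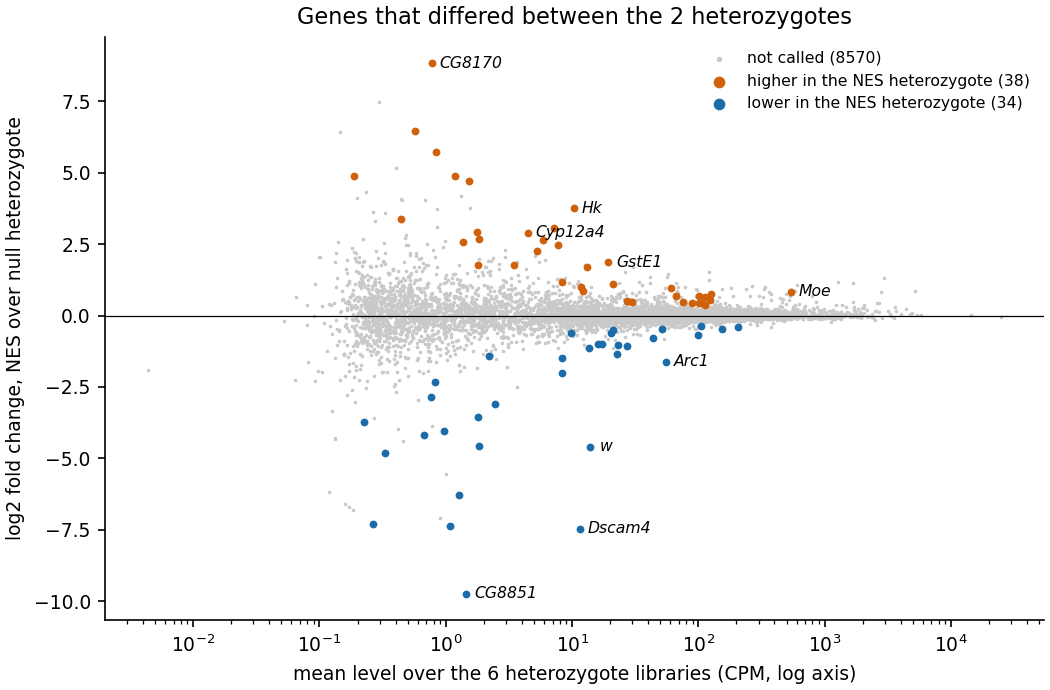
Mean level over the 6 heterozygote libraries (CPM, log axis) against the log2 fold change of NES over null heterozygote, 1 point per tested gene; the 38 genes called higher are orange, the 34 called lower are blue and the others grey. The called genes run from a fitted log2 fold change of -9.75 (CG8851) to 8.84 (CG8170), whose size depends on the prior count because one genotype is at 0, and Moe is at a high level with a small change.

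Across 22 other settings of the analysis, 7 genes were called in every one: Dscam4, CG2993, Arc1, CG5080, GstE1, lncRNA:CR42861 and Cyp12a4. At least 18 settings kept 30 of the 72 genes, and fewer than 11 settings kept 25. A gene not tested in a setting counted as not called there. The setting with a mean of at least 5 CPM left out genes of lower level, which therefore could not be called in every setting. None of the 72 turned direction under any of them. Without null heterozygote replicates 1 and 3, which leaves that genotype with 1 library whose spread is assumed to be that of the others, 32 genes were called, 24 of them among the 72. The 24 that kept the call were Dscam4 (log2 fold change -7.63, edgeR adjusted p = 0.000308), w (-5.07), Cyp6t3 (-4.88), CG2993 (-2.09), Arc1 (-1.50), CG5080 (-1.49), CG1503, CG44005, CG8851, the pseudogenes CR45458, CR33319 and CR44906 and lncRNA:CR44445 on the lower side, and CG42613 (6.36), Cyp12a4 (2.91), CG9380 (2.61), GLaz (2.27), lncRNA:CR42861 (2.14), GstE1 (1.78), Nak (0.89), Mnr (0.87), MCTS1 (0.65), TfIIFbeta (0.60) and asRNA:CR45600 on the higher side. The other 48 called genes missed the threshold there, with edgeR adjusted p from 0.0541 to 0.204, and all kept their direction. Among those 48 were Hk (2.62), lov (5.05), Cyp6a17 (3.40), CG43050 (2.83), Nepl21 (1.84), GstE9 (1.75), pyd3 (1.38), norpA (0.63), GstE6 (0.53), Jheh2 (0.40) and CG8170 on the higher side, and CG9297 (-3.75), zfh2 (-3.07), hwt (-3.02), Dad (-1.42), GstZ1 (-1.21), fog (-0.83) and GstE11 on the lower side. Of 38 list medians, 17 turned sign there, 16 of them from positive to negative. Without null heterozygote replicate 2 alone, 741 genes were called, 527 of them higher, and with the eggshell share as a covariate 2451 were called. With DESeq2, 306 of 9845 genes tested were called, 166 higher and 140 lower, and all 72 were among them.

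Moe itself was higher in the NES heterozygote. The null heterozygote libraries had 356, 439 and 368 CPM and the NES heterozygote libraries 619, 769 and 692 CPM. The lowest NES library was thus well above the highest null library. The log2 fold change was 0.84 (SE 0.11, edgeR adjusted p = 0.0103), a 1.79-fold difference, and the mutant had 409 ± 28.3 CPM. With null heterozygote replicates 1 and 3 left out it was 0.65 (adjusted p = 0.134 by edgeR), and with the mutant libraries out of the fit it was 0.84 (edgeR adjusted p = 0.0838). It also missed the threshold without null heterozygote replicate 1 (0.77, edgeR adjusted p = 0.053), null heterozygote replicate 3 (0.79, edgeR adjusted p = 0.0707) or NES heterozygote replicate 3 (0.84, edgeR adjusted p = 0.0558). The counts do not tell transcripts of the alleles apart.

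Of 20 tested genes for Moesin and its known partners at the cortex, Moe was the 1 that passed, against 0.833% of all tested genes. The list's median log2 fold change was 0.02, against -0.003 over all genes. Merlin, encoded by Mer, is the nearest relative of Moesin in the fly. Mer was at 127, 100 and 120 CPM in the null and 125, 108 and 115 CPM in the NES heterozygote, so the genotypes overlapped. Slik, the kinase that phosphorylates Moesin, was at 133, 271 and 140 CPM against 153, 242 and 186 CPM, with replicate 2 of each genotype the highest. Flapwing, encoded by flw, is the phosphatase subunit that reverses this step. The flw libraries lay apart at 89.2, 85.9 and 96.3 CPM against 102, 99.2 and 105 CPM, a log2 fold change of 0.17 (SE 0.06, edgeR adjusted p = 0.396). Rho1, Rok, Mbs and crb, of the small GTPase, kinase, myosin phosphatase and apical polarity arms, had log2 fold changes between -0.07 and 0.13.

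The eye colour gene w, which encodes a pigment precursor transporter and serves as the marker of many P-element insertions, was lower in the NES heterozygote. It had 21.6, 36.4 and 21.2 CPM in the null heterozygote and 1.18, 0.296 and 1.78 CPM in the NES heterozygote. The genotypes did not come near each other (log2 fold change -4.60, SE 0.48, adjusted p = 0.00374 by edgeR). The mutant, which carries both alleles, had 39.3 ± 3.04 CPM. The call was lost when the mutant libraries were left out of the fit, where the log2 fold change was again -4.60 (edgeR adjusted p = 0.0649). Of the other visible marker genes listed beside w, the eye pigment transporter gene st and the bristle gene f were tested, and neither was called.

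Dscam4, an immunoglobulin family adhesion receptor gene (chromosome 3L, 8238647 to 8282398 in the BDGP6.54 annotation), had 21, 25.3 and 22.3 CPM in the null heterozygote and 0.0281, 0.237 and 0.117 CPM in the NES heterozygote. It was the call with the lowest adjusted p (log2 fold change -7.47, SE 0.35, adjusted p = 7.75e-05 by edgeR), and the mutant had 24.6 ± 0.552 CPM. Its libraries were close to background in the NES heterozygote and steady in the other genotypes. Of its paralogs, Dscam1 was at 1.03 and 0.587 CPM and Dscam3 at 0.311 and 0.205 CPM in the null and NES heterozygotes, neither called, and Dscam2 fell under the count filter. Inside Dscam4, on the opposite strand, CG7213 had a log2 fold change of -6.19 (edgeR adjusted p = 0.135). Of 36 immunoglobulin family genes tested, Dscam4 was the 1 that passed, against 0.833% of all tested genes, and their median was -0.11. Of these log2 fold changes 14 were positive and 22 negative.

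Arc1, a capsid-forming gene of retrotransposon origin that carries RNA between cells at the neuromuscular junction, was at 86, 76.5 and 88.5 CPM in the null and 23.5, 28.9 and 29.4 CPM in the NES heterozygote. Every NES library was under 30 CPM and every null library above 76 CPM (log2 fold change -1.62, SE 0.13, edgeR adjusted p = 0.000894). The mutant lay between them at 52.5 ± 7.12 CPM. Its neighbour and paralog Arc2 had 15.5, 8.66 and 16.1 CPM against 9.8, 6.1 and 9.12 CPM, overlapping (log2 fold change -0.69, SE 0.28, edgeR adjusted p = 0.452). Octbeta3R, an octopamine receptor gene, was near background on both sides, with 45 counts over the null and 3 over the NES libraries, a ratio of 14.4 with a 95% counting interval of 4.61 to 72.3. The zinc finger and homeodomain gene zfh2 was at 1.36 ± 0.209 and 0.183 ± 0.0942 CPM (log2 fold change -2.86, SE 0.46, edgeR adjusted p = 0.0299).

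Dad, also lower, encodes the inhibitory Smad that limits Dpp signalling, which acts in the germline stem cell niche and in follicle cells. It was at 32.9, 34.5 and 30.2 CPM in the null and 10.6, 15.5 and 12.7 CPM in the NES heterozygote (log2 ratio -1.33, SE 0.21, adjusted p = 0.025 by edgeR), and the mutant had 13 ± 3.28 CPM. In bulk ovaries, fewer cells of a type and less RNA per cell cannot be told apart. The gene fog encodes the secreted ligand that drives apical constriction at gastrulation. Its libraries held 116, 135 and 115 CPM against 68.7, 71.8 and 89.4 CPM (log2 fold change -0.67, SE 0.11, edgeR adjusted p = 0.032). The retinoid-binding gene pinta, known from the visual pigment cycle, was at 18.8 ± 1.82 and 8.55 ± 1.55 CPM. Dph1, for diphthamide synthesis on elongation factor eEF2, and Acsf2, an acyl-CoA synthetase family gene, fell by 0.48 and 0.62 on the log2 scale.

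Genes of detoxification differed in both directions. Glutathione S-transferases conjugate glutathione to toxic and oxidised compounds, and cytochrome P450 enzymes oxidise steroids, toxins and lipids. Of 29 glutathione S-transferase genes tested, 3 were called higher and 2 lower, and the list's median log2 fold change was 0.05. It was -0.04 without null heterozygote replicates 1 and 3, and 0.12 without null heterozygote replicate 2. Over all tested genes 0.44% were called higher and 0.393% lower. Of 49 P450 genes tested, 2 were called higher and 1 lower, with a median of 0.10. Of 15 UDP-glycosyltransferases, which conjugate sugars, 0 were called by edgeR, 3 had an unadjusted p under 0.05 and DESeq2 called 2 lower. Over all genes 9.55% had such a p, and DESeq2 called 140 of 9845 lower. Ugt50B3 came nearest at 15.1, 20.5 and 14.3 CPM against 8.65, 6.84 and 9.15 CPM (edgeR adjusted p = 0.115). The summed glutathione S-transferase level ran from 1543 to 1596 CPM in the null and from 1785 to 1810 CPM in the NES heterozygote libraries. Of the mean difference of 216 CPM, the uncalled GstD1 made up 147 CPM and the called members 48.8 CPM.

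The epsilon class glutathione S-transferases of arm 2R carried most of that list's calls. GstE1 (chromosome 2R, 18398393 to 18399223 in the BDGP6.54 annotation) was at 8.07, 8.83 and 8.03 CPM in the null and 28.3, 35.3 and 27.8 CPM in the NES heterozygote. The null libraries were nearly equal and every NES library was at least 3 times as high (log2 fold change 1.87, SE 0.12, edgeR adjusted p = 0.000311); the mutant had 22.4 ± 1.62 CPM. GstE6 was at 80.8, 95.2 and 89.4 CPM against 122, 139 and 154 CPM (log2 fold change 0.65, SE 0.10, edgeR adjusted p = 0.0226). GstE9 was at 1.58, 1.59 and 1.52 CPM against 3.99, 4.89 and 7.29 CPM (log2 fold change 1.78, SE 0.25, edgeR adjusted p = 0.0137). Its spread was wider in the NES heterozygote, and the groups lay apart. The other members of the array that were tested, GstE2, GstE3, GstE5, GstE7, GstE8 and GstE10, had log2 fold changes between 0.27 and 1.22, none of them called. That of GstE2, at under 0.6 CPM in every library, turned to -0.91 without null heterozygote replicates 1 and 3. GstE4 fell under the count filter. Members of this array resemble one another in sequence, and how reads shared by copies were counted is not given in the sources used here.

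GstE11, farther along the same arm, went the other way. It was at 29.8, 30 and 32.4 CPM in the null and 16.8, 15.1 and 13.3 CPM in the NES heterozygote (log2 ratio -1.03, SE 0.11, adjusted p = 0.00454 by edgeR), and the mutant had 27.5 ± 2.55 CPM. GstZ1, of the zeta class that takes part in tyrosine breakdown, was at 20.5, 26.3 and 21.8 CPM against 11, 12.9 and 10.5 CPM (log2 fold change -0.99, SE 0.16, edgeR adjusted p = 0.0289). GstD1, a delta class gene, was at 768, 690 and 756 CPM against 905, 876 and 874 CPM, apart but not called (log2 fold change 0.26, SE 0.06, edgeR adjusted p = 0.131). GstE12 and GstE13 had log2 fold changes of 0.05 and -0.14, not called.

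Of the P450 genes, Cyp12a4, a mitochondrial P450 linked to insecticide resistance in flies, was at 1.16, 1.04 and 0.937 CPM in the null and 6.63, 8.83 and 8.16 CPM in the NES heterozygote. The ranges were far apart (log2 fold change 2.91, SE 0.19, adjusted p = 0.000311 by edgeR), and the mutant had 7.19 ± 0.501 CPM. Its paralog Cyp12a5 was at 1.27, 0.13 and 1.01 CPM against 0.506, 0.267 and 0.35 CPM, overlapping. Cyp6a17, known for a role in temperature preference, was at 0.527, 0.292 and 0.405 CPM against 3.01, 2.4 and 3.96 CPM (log2 fold change 2.92, SE 0.37, edgeR adjusted p = 0.00935). Its close paralog Cyp6a23 was at 7.33, 4.12 and 10.1 CPM against 6.63, 4.95 and 10.3 CPM, without a difference beyond its spread (log2 fold change 0.02, SE 0.35). Cyp6t3, which has a role in ecdysone synthesis, was lower, at 1.03, 2.08 and 0.734 CPM against 0.0562, 0.0592 and 0.0874 CPM (log2 fold change -4.17, SE 0.53, edgeR adjusted p = 0.00935). Of the ecdysone list, 0 of 17 tested members were called by edgeR, 0 had an unadjusted p under 0.05 and DESeq2 called 0. The median was 0.10, or -0.51 without null heterozygote replicates 1 and 3, and 0.41 without null heterozygote replicate 2. Cyp4g1 and Cyp6a2 had log2 fold changes of 1.69 and 3.62, apart but not called.

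**Figure D3:**
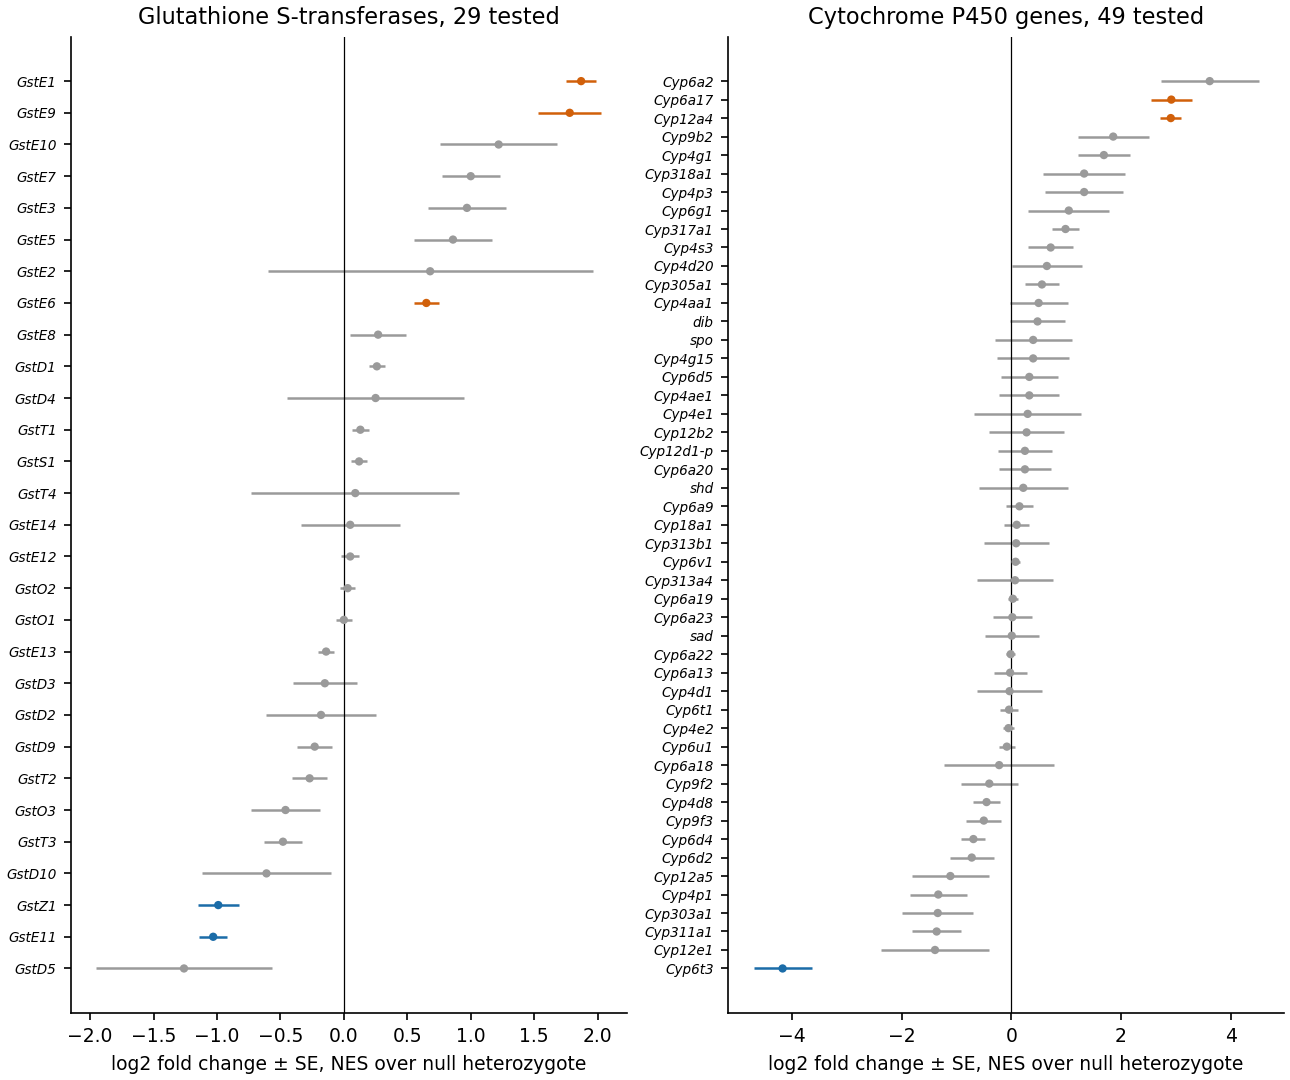
Log2 fold change of NES over null heterozygote (points) with its standard error (bars) for the 29 tested glutathione S-transferase genes and the 49 tested P450 genes, sorted by size; called genes are orange where higher and blue where lower, the others grey. GstE1 and GstE9 lead the first panel and Cyp6t3 closes the second at -4.17.

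Higher in the NES heterozygote was GLaz, the glial lipocalin related to apolipoprotein D. It was at 1.24, 2.63 and 0.709 CPM in the null and 13.6, 10.6 and 14 CPM in the NES heterozygote (log2 ratio 3.08, SE 0.40, edgeR adjusted p = 0.0102). The mutant had 13.2 ± 1.1 CPM. NLaz, the other lipocalin of this kind, was highest in replicate 2 of each genotype, at 4.46, 32.2 and 4.66 CPM against 12.9, 29.4 and 20.3 CPM. GLaz was the 1 called gene of 22 tested in the lipocalin and lipid list, against 0.833% of all tested genes. The list's median was 0.12, or -0.07 without null heterozygote replicates 1 and 3, and 0.27 without null heterozygote replicate 2. Jheh2, a juvenile hormone epoxide hydrolase gene, was at 87.2, 93.2 and 89.4 CPM against 121, 127 and 122 CPM (log2 fold change 0.46, SE 0.05, edgeR adjusted p = 0.00565). Its relatives Jheh1 and Jheh3 had log2 fold changes of 0.08 and -0.37, not called. The pyrimidine catabolism gene pyd3 was at 6.11 ± 1.53 and 19.9 ± 2.3 CPM, and the neprilysin-like peptidase gene Nepl21 at 1.8 ± 0.552 and 8.66 ± 2.26 CPM.

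Hk, also higher, encodes the beta subunit of the Shaker potassium channel. It was at 0.633, 3.08 and 0.658 CPM in the null and 23.7, 20.6 and 13.1 CPM in the NES heterozygote. Null replicate 2 was the highest of its group and still under the lowest NES library (log2 fold change 3.76, SE 0.63, edgeR adjusted p = 0.0328). The mutant was higher and more scattered at 46.6 ± 20.8 CPM. The call held in 8 of 22 settings. Of 28 ion channel and synapse genes tested, Hk was called higher and Arc1 lower, against 0.44% and 0.393% of all tested genes. The list's median was 0.09, or -0.16 without null heterozygote replicates 1 and 3, and 0.28 without null heterozygote replicate 2. Hdc, for histamine synthesis, was at 0.0791, 0.324 and 0.0253 CPM against 0.646, 3.61 and 3.21 CPM, apart but not called (edgeR adjusted p = 0.0851). The phospholipase C gene norpA, of the light response, was at 106, 94.2 and 101 CPM against 149, 140 and 151 CPM (log2 fold change 0.54, SE 0.07, edgeR adjusted p = 0.00935). Of the neuron markers, Gad1 and fne had no count in the 6 libraries, ChAT and Syt1 were at or under 0.0324 CPM, and elav was between 1.6 and 3.86 CPM. Of the 4 tested, 0 were called by edgeR or DESeq2 and 0 had an unadjusted p under 0.05. The summed level of the list was 61.5 to 63.9 CPM in the null and 67.4 to 72.3 CPM in the NES heterozygote libraries, most of it from Syx1A, at 55.3 and 60.5 CPM on average. The median log2 fold change of those tested was 0.18. It was -0.23 without null heterozygote replicates 1 and 3, and 0.93 without null heterozygote replicate 2. The part of these markers in the calls was not tested.

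The BTB domain gene lov was at 0.0527, 0.0649 and 0.101 CPM in the null and 2.92, 1.69 and 2.22 CPM in the NES heterozygote (log2 ratio 4.89, SE 0.48, edgeR adjusted p = 0.00299). The mutant had 0.619 ± 0.219 CPM, between the heterozygotes. CG42613 was at 0.106 ± 0.0762 and 2.97 ± 0.516 CPM, CG9380 at 1.64 ± 0.563 and 10.1 ± 1.95 CPM, and CG43050 at 0.392 ± 0.0807 and 2.34 ± 0.778 CPM. The noncoding RNA gene lncRNA:CR42861, on the X chromosome, was at 1.85, 2.95 and 2.38 CPM against 12.7, 13.6 and 13 CPM. Its NES libraries were within 1 CPM of each other (log2 fold change 2.46, SE 0.20, adjusted p = 0.000894 by edgeR), and the mutant had 13.1 ± 1.99 CPM.

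On the lower side, CG2993 was at 12.1, 14 and 14.2 CPM in the null and 3.57, 3.17 and 3.15 CPM in the NES heterozygote (log2 ratio -2.02, SE 0.12, edgeR adjusted p = 0.000311). CG5080 was at 12.2, 12.3 and 12.6 CPM against 3.82, 4.21 and 5.19 CPM (log2 fold change -1.49, SE 0.15, edgeR adjusted p = 0.00323). Both had groups that were tight and far apart. The mutant had 14.6 ± 0.69 CPM for CG2993 and 8.02 ± 0.613 CPM for CG5080. CG3397 was at 3.5 ± 1.2 and 0.147 ± 0.181 CPM, CG9297 at 3.32 ± 1.61 and 0.279 ± 0.118 CPM, hwt at 4.38 ± 0.926 and 0.506 ± 0.233 CPM, and lncRNA:dntRL at 3.2 ± 0.191 and 1.21 ± 0.173 CPM.

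**Figure D4:**
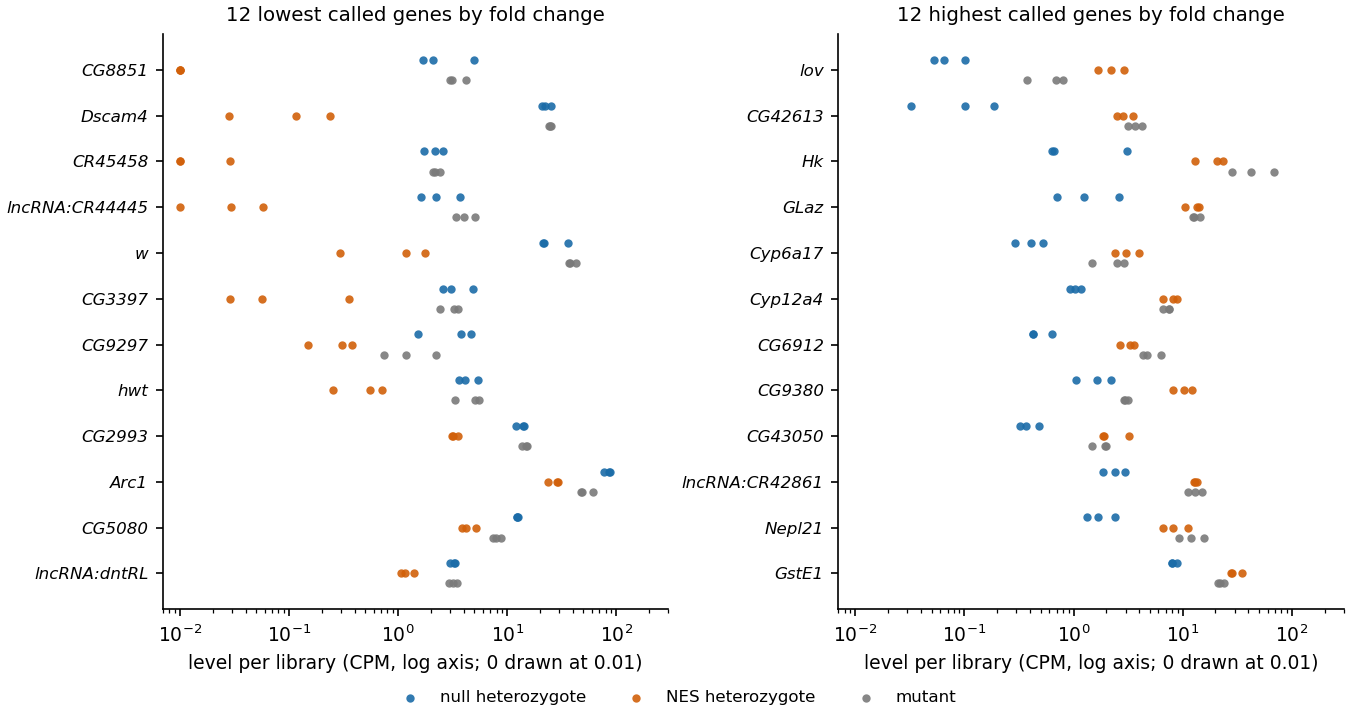
Level of the 12 lowest and 12 highest called genes by fold change, among those with a mean of at least 1 CPM, in every library (points, CPM on a log axis, 0 drawn at 0.01), with the mutant beside the heterozygotes for comparison. Null (blue) and NES heterozygote (orange) points do not overlap for any of the 24 genes.

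Some genes were read in one heterozygote and hardly or not at all in the other. CG8851 had 1.69, 4.96 and 2.08 CPM in the null heterozygote and 0 counts in the NES heterozygote, at least 95.5-fold lower against a floor of 3 counts over the group. CG33655 also had 0 counts there and was at least 17.9-fold lower. CG8170 was the reverse, with 0 counts in the null heterozygote and 1.01, 2.19 and 1.43 CPM in the NES heterozygote, at least 55.3-fold higher. The pseudogene CR45458 had 231 counts over the null and 1 over the NES libraries (ratio 221, 95% counting interval 39.3 to 8776), and lncRNA:CR44445 had 264 and 3 (ratio 84.3, interval 28.5 to 411). In the other direction, asRNA:CR45600 had 3 counts over the null and 171 over the NES libraries (ratio 59.5, interval 20 to 291), and the pseudogene CR41379 had 1 and 117 (ratio 122, interval 21.5 to 4866). The mutant had 3.43 ± 0.635 CPM of CG8851, 1.92 ± 0.93 CPM of CG8170 and 3.29 ± 0.37 CPM of asRNA:CR45600. Intervals and floors cover counting error only.

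At the other extreme were well-read genes with small and tight differences. MCTS1, a factor for translation reinitiation, was at 78.8, 79.3 and 74.4 CPM in the null and 124, 130 and 122 CPM in the NES heterozygote (log2 ratio 0.69, SE 0.06, edgeR adjusted p = 0.000896), with 117 ± 3.55 CPM in the mutant. Nak, the Numb-associated kinase gene, was at 93.9, 84.7 and 104 CPM against 160, 151 and 164 CPM (log2 fold change 0.75, SE 0.09, edgeR adjusted p = 0.00565), with 109 ± 6.48 CPM in the mutant. Both had groups that did not come close. TfIIFbeta, of the general transcription factor TFIIF, rose by 0.49 on the log2 scale, as did Cap-H2, of condensin II. BthD, a selenoprotein gene, was at 75.8 ± 5.21 and 103 ± 5.29 CPM, and the dehydrogenase gene Hsdl2 at 85.1 ± 6.2 and 116 ± 2.61 CPM. CG4554 had the smallest called change at 118 ± 3.89 and 92.4 ± 1.07 CPM (log2 fold change -0.35, SE 0.06, edgeR adjusted p = 0.032). The calls of MCTS1 and Nak held in 21 of 22 settings and that of TfIIFbeta in 13. Those of BthD, Hsdl2, Cap-H2 and CG4554 held in 9, 8, 7 and 7.

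The remaining called genes were in none of the lists. Higher in the NES heterozygote were CG14715 (41.6 ± 4.26 against 80.5 ± 7.18 CPM), CG30054 (7.92 ± 0.484 against 15.7 ± 0.444 CPM), hebe (13.5 ± 2.46 against 28.9 ± 5.47 CPM) and CG12279 (8.61 ± 1.42 against 15.7 ± 0.214 CPM). CG12592, Mnr, Kr-h2, CG1441, the pseudogene CR18217 and the noncoding lncRNA:CR44288 were also higher, by 0.37 (Kr-h2) to 3.39 (CG1441) on the log2 scale. The noncoding lncRNA:CR44472 had 1 count over the null and 38 over the NES libraries (ratio 39.7, interval 6.7 to 1608). Lower were CG44005 (55.8 ± 4.7 against 32.1 ± 1.99 CPM), CG1503 (21.3 ± 0.863 against 10.7 ± 0.663 CPM), CG6293 (179 ± 8.7 against 130 ± 7.32 CPM) and CG11076 on chromosome 4 (234 ± 0.713 against 177 ± 12 CPM). CG2006 and CG7800 fell by 0.62 and 0.52 on the log2 scale, and the pseudogene CR44906 by 4.06. The pseudogene CR33319 had 66 counts over the null and 2 over the NES libraries (ratio 31.6, interval 8.41 to 266).

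Several listed genes lay apart between the genotypes and were not called. Obp99a, an odorant-binding protein gene, was at 1.69, 1.91 and 1.47 CPM in the null and 3.23, 3.73 and 5.01 CPM in the NES heterozygote (edgeR adjusted p = 0.0543). Nup37, of the nuclear pore, was at 46.3, 45.7 and 45.4 CPM against 56.4, 56.4 and 53.7 CPM (edgeR adjusted p = 0.0894). The extracellular superoxide dismutase gene Sod3 was at 255, 359 and 305 CPM against 402, 462 and 465 CPM (adjusted p = 0.113 by edgeR), and the catalase gene Cat at 57.3 and 78.5 CPM on average (edgeR adjusted p = 0.246). The genes sns, of the immunoglobulin family, sa, a testis marker, and Fbp2, a fat body marker, were near background and had edgeR adjusted p of 0.0749, 0.0846 and 0.0934. Of the 22 oxidative stress and metal genes tested, 8 had groups that lay apart (13.3% over all tested genes). An unadjusted p under 0.05 was found for 6 (9.55% over all tested genes), and 0 were called by edgeR. DESeq2 called 1 higher, against 166 of 9845 over all genes.

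Heat shock genes, the subject of the series, gave no call between the heterozygotes. Of 16 tested members of the inducible list, 0 passed in edgeR or in DESeq2, and 1 had an unadjusted p under 0.05 (9.55% over all tested genes). In that list 10 members had positive and 6 negative log2 fold changes, and the median was 0.08. Hsp26, a small heat shock protein gene, was at 1128, 1281 and 1155 CPM in the null and 1300, 1817 and 1472 CPM in the NES heterozygote. Its groups lay apart, which held for 1 of the 16 and for 13.3% of all tested genes. The Hsp26 difference was not called (log2 fold change 0.36, SE 0.12, edgeR adjusted p = 0.304). Hsp68, of the Hsp70 family, was at 46.6, 52.9 and 61.5 CPM against 37.8, 134 and 78.7 CPM, so NES replicates 1 and 2 enclosed all null libraries. Hsp23 was at 27.8, 42.6 and 28.2 CPM against 20.6, 81.9 and 35.1 CPM, with replicate 2 the highest of each genotype. Hsp83, the Hsp90 gene, was at 4275, 5509 and 4134 CPM against 4400, 5205 and 4807 CPM, overlapping (log2 fold change 0.05, SE 0.12). Among 11 constitutive chaperones and 19 genes of protein folding in the endoplasmic reticulum, 0 were called by edgeR or DESeq2, and 0 and 2 had an unadjusted p under 0.05. Their medians were 0.04 and 0.08. They were -0.26 and -0.17 without null heterozygote replicates 1 and 3, and 0.22 and 0.15 without null heterozygote replicate 2.

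Eggshell genes had positive log2 fold changes without any call. All 9 chorion genes, all 16 vitelline membrane and other eggshell genes and all 4 yolk genes were above 0, with medians of 0.86, 0.47 and 0.29. In these lists 0 were called by edgeR, while 2, 1 and 0 had an unadjusted p under 0.05 and DESeq2 called 1, 1 and 0 higher. Over all genes 9.55% had such a p, and DESeq2 called 166 of 9845 higher. Without null heterozygote replicates 1 and 3 these medians were -0.26, -0.82 and -0.59. Without null heterozygote replicate 2 they were 2.03, 2.23 and 1.59. Their direction and size thus depended on which null libraries were kept. Cp15, a chorion protein gene, had the lowest adjusted p of its list and lay apart (log2 fold change 1.31, SE 0.32, edgeR adjusted p = 0.131, DESeq2 adjusted p = 0.00102). The yolk protein gene Yp1 was at 187, 1402 and 240 CPM against 576, 1470 and 882 CPM, again with replicate 2 the highest in each genotype. Follicle cell genes had a median of 0.17 over 23 tested. It was -0.39 without null heterozygote replicates 1 and 3, and 0.68 without null heterozygote replicate 2. Of the follicle cell genes 0 were called by edgeR or DESeq2, and 1 had an unadjusted p under 0.05.

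Maternal, nuclear and housekeeping lists held no gene called by edgeR. Medians were 0.00 over 20 germline and maternal genes, -0.05 over 22 meiosis genes, -0.08 over 27 piRNA pathway genes, 0.01 over 42 nuclear pore and mRNA export genes, -0.05 over 81 cytosolic ribosomal protein genes and 0.11 over 35 proteasome genes. Without null heterozygote replicates 1 and 3 the same medians were 0.05, -0.12, 0.02, 0.11, -0.27 and -0.07. Without null heterozygote replicate 2 they were -0.02, -0.01, -0.13, -0.06, 0.06 and 0.18. In each of these lists 0 genes were called by edgeR. In that order 2, 1, 3, 2, 0 and 4 genes had an unadjusted p under 0.05, and DESeq2 called 2, 1, 2, 1, 0 and 1. Over all genes 9.55% had such a p, and DESeq2 called 306 of 9845. The germline differentiation gene bam was at 43.4, 23.7 and 49.1 CPM against 75.6, 65.3 and 58.4 CPM, apart but not called (log2 fold change 0.78, edgeR adjusted p = 0.243, DESeq2 adjusted p = 0.0464). Without null heterozygote replicates 1 and 3 its log2 fold change was 1.48 and passed (edgeR adjusted p = 0.0132). The piRNA pathway gene moon was at 30.3, 21 and 33.2 CPM against 13.8, 15.3 and 17.9 CPM (log2 fold change -0.85, edgeR adjusted p = 0.133), and without those libraries at -0.43 on the log2 scale (edgeR adjusted p = 0.307). The piRNA gene aub was at 133, 135 and 137 CPM against 122, 121 and 119 CPM (log2 fold change -0.16, edgeR adjusted p = 0.212). For replication and cell cycle genes edgeR called 0, DESeq2 called 2 higher and 3 had an unadjusted p under 0.05, with a median of 0.06 over 35 tested. That median was 0.39 without null heterozygote replicates 1 and 3, and -0.08 without null heterozygote replicate 2. Of 39 lists in all, 7 held a called gene. These lists took in 14 of the 72 genes, and 58 were in none.

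The called genes were spread over the chromosomes. Arm 2R held 21 of the 72 (29.2%, against 19.6% of tested genes) and 3R held 23 (31.9%, against 23.7%). Arm 3L held 4 (5.56%, against 18.8%), 2L held 10 (13.9%, against 17.1%) and chromosome 4 held 2 (2.78%, against 0.926%). The X chromosome, on which the alleles lie, held 12 (16.7%, against 17.3%). Within 1 Mb of Moe, 2 of 162 tested genes were called, Moe itself and CG12112, whose start lies 314 kb away. CG12112 was at 41.8, 29.8 and 39.4 CPM in the null and 18, 16.4 and 18.1 CPM in the NES heterozygote (log2 ratio -1.08, SE 0.13, edgeR adjusted p = 0.00824). Within 2 Mb it was 3 of 262, the third being Hk. These shares are a description and were not tested.

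**Figure D5:**
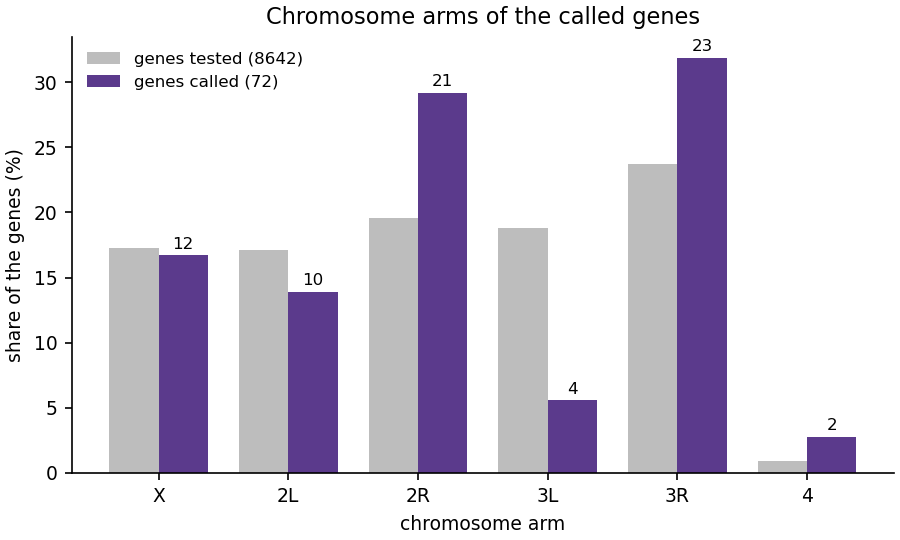
Share (%) of the 8642 tested genes (grey) and of the 72 called genes (purple) on each chromosome arm, with the number of called genes above its bar. The X chromosome holds about the same share of both. Arms 2L and 3L hold a smaller share of the called genes, and arms 2R and 3R a larger one, as does chromosome 4 with 2 called genes.

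Of the 72 genes, 9 had another called gene within 20 kb, start to start, in 5 pairs, and each pair had one direction. GstE1 with GstE6, and GstE6 with GstE9, made up 2 of the pairs. CG8851 and CG8852 on arm 2L were both lower, and CG8852 was at 1.36 ± 0.515 and 0.271 ± 0.0931 CPM. Cap-H2 and TfIIFbeta overlap at their ends on opposite strands, and CG6912 and asRNA:CR45600 overlap on the same strand, so reads there may belong to either member. CG6912 was at 0.492 ± 0.122 and 3.17 ± 0.455 CPM. In all, 32 of the called genes overlap another annotated gene, 8 of them on the same strand. Their values are uncertain, because the strand setting of the counting is not given in the sources used here.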

How the data were processed

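Total ovary RNA from TRIzol went into TruSeq Stranded mRNA libraries read on a HiSeq instrument, as the labels' protocols state. In the submitters' processing notes are the build BDGP6 and the tools HTSeq, HISAT2 2.0.4, Trimmomatic 0.36, FastQC and SAMtools 0.1.19. Not given in the sources used here are the annotation release, strand setting and treatment of multiply mapped reads. The authors deposited raw read counts per gene for each library, with no normalization; 0 entries named no gene. The Ensembl BDGP6.54 annotation, of the same assembly series, supplied symbols and coordinates; 306 of 17558 identifiers, with 5% of counts, did not match and are named nowhere.

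The counts were tested with edgeR 4.0.16 (limma 3.58.1, R 4.3.3): filterByExpr (minimum count 10, minimum total 15), TMM scaling, and a quasi-likelihood test on all 9 libraries with a coefficient for each genotype, adjusted by the Benjamini-Hochberg method over the 8642 genes tested (threshold 0.05). Standard errors are the size of the log2 fold change over the square root of F. Total depth was 31.8 to 43.6 M counts; chi-square tests found no duplicated library. The procedure was tested on simulated data, drawn independently for each gene and library with no eggshell difference among libraries. That simulation cannot show how such differences affect the calls. Alternatives, 22 in all for the gene calls, included DESeq2 1.42.0, other scalings and filters, a replicate block, a test against a 1.5-fold change, the eggshell share as a covariate, and left-out libraries.

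The comparison, the 39 gene lists and the alternatives were chosen with earlier results of these data known. By rule, Moe and w came first, any called gene could be named, levels per library, some of them in a figure alone, were for the 12 highest and 12 lowest called genes with a mean of at least 1 CPM and for called list members, and up to 3 uncalled members of lowest adjusted p per list could be named; paralogs and a few list members named beside them were chosen after their values were seen. No sequences were analysed here.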

Additional observations from a re-analysis of the deposited data

How the results depend on the processing

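Against 72 genes called, 71 were called with DESeq2 size factors, 77 with library size alone and 72 with TMM without eggshell, yolk and mitochondrial genes, without the count filter or with a robust spread. The count was 306 with DESeq2, 33 with a mean of at least 5 CPM, 24 with only the 6 heterozygote libraries, 29 in a test against a 1.5-fold change, 32 without null heterozygote replicates 1 and 3 and 2451 with the eggshell share as a covariate. Leaving out 1 library at a time gave 35 to 741 genes. The 741, of which 527 were higher, came without null heterozygote replicate 2, and the others were 42 and 35 without null replicates 1 and 3, 43, 42 and 41 without NES replicates 1, 2 and 3, and 45, 44 and 49 without mutant replicates 1, 2 and 3. The cause was not tested. Deviations from the genotype mean in same-numbered NES and null libraries had correlations of 0.47, 0.48 and -0.03. For NES replicate 1 with null replicate 3 the correlation was 0.46. The labels do not say whether the numbers mark a shared day or cross. With 3 libraries per genotype these correlations cannot decide it. With the replicate block 38 genes were called, and 24 with the block and only the 6 libraries.

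The Moe log2 fold change ranged from 0.76 to 0.94 with 1 library left out. It was 0.84 with only the 6 libraries and in the test against a 1.5-fold change (edgeR adjusted p = 0.536), and 0.65 without null replicates 1 and 3. The Moe call was lost in each of the latter settings. With 1 library left out it was lost without null replicate 1, null replicate 3 or NES replicate 3, and kept otherwise. The w log2 fold change ranged from -5.15 to -4.16 with 1 library left out. For w it was -4.60 with only the 6 libraries and -4.61 with the replicate block there, both short of the threshold. The eggshell and yolk difference ran from 0.76 to 2.76 points and reversed to -1.14 without null replicates 1 and 3. Of 1555 values of called genes under alternatives, 497 lost the call and 0 reversed. Of 726 list medians, from 33 lists, 42 moved beyond the spread. Without null replicates 1 and 3, however, 17 of 38 list medians turned sign. Of 403 uncalled changes of at least 1 (log2), 200 had groups that do not overlap; how far depth limits these was not tested.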
